A study of Mus musculus with 8 samples.

Results

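The genes described here are the MAP kinases, the kinases above and below them, and the dual-specificity and tyrosine phosphatases, in lungs of Fra-2 transgenic mice. Members were all named genes whose symbol starts with Mapk, Map2k, Map3k, Map4k, Dusp, Ptpn or Ptpr. The rule itself uses no values, but it was set with earlier results of these data known. This gave 71 genes of 8741 named in the series, with 107 probes, and all 71 could be tested. They comprise 27 kinases, 36 phosphatases and 8 scaffolds and other proteins with the same prefixes.

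MAP kinase cascades are relays of 3 kinase tiers: a MAP3K phosphorylates a MAP2K, which activates ERK, JNK or p38. The end kinases phosphorylate and induce Jun and Fos proteins, the subunits of the AP-1 transcription factor to which Fra-2 belongs. Phosphatases oppose them, and several of the dual-specificity MAP kinase phosphatases are themselves genes induced by the cascade they switch off. In the lung these pathways are known for roles in epithelial repair, inflammation and fibrosis.

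Lung RNA of each of 4 male transgenic mice (Fra-2, the Fosl2 gene, C57BL6 x CBA background, 14 weeks) was hybridised on 2-colour arrays against 1 pool made from the lungs of 4 male wild-type mice that shared age and background. The labels do not name the promoter that drives the transgene. Every animal was hybridised in both dye orientations, and the 2 arrays were averaged, so n = 4 mice. Genotype and the pooling of the wild-type RNA cannot be told apart, and the pool's own spread was not measured.

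All values below are log2 ratios of a transgenic mouse over the pool, so they say nothing about levels, and neither the tissue's markers nor the order of genes by abundance could be read from them. The direction is likely only, since only the order of the channels in the labels gives it, and the transgene could not be checked because no probe of Fosl2 is named. In whole lung, fewer cells of a type and less RNA per cell cannot be told apart. Array medians lay between -0.09 and 0.01, and the dye-swapped arrays of a mouse correlated at 0.587 to 0.685 over probes in mice 1 to 3. Mouse 4 stood apart, with a correlation of 0.389 and a standard deviation over probes of 0.768 on its Cy3 array, against 0.413 to 0.457 on the other 7. Results are given with that array and, where it matters, without it.

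Of the 71 genes, 22 passed the threshold (limma, adjusted p under 0.05 over all 8692 named genes tested), 7 higher and 15 lower in transgenic lungs. That is 31.0% of the members, beside 31.9% of all named genes, of which 13.5% were higher and 18.4% lower, so the share of genes that changed is near the background. All 22 had the same sign in 4 of 4 mice, and 17 had it on all 8 arrays. Over called and uncalled genes together, 20 of the 71 had 1 sign on every array, beside 27.8% of all named genes. Only Dusp1 changed at least 2-fold, beside 1.65% of all named genes. Without the Cy3 array of mouse 4, 7 kinases were higher in place of 4, and 4 phosphatases in place of 3. With and without it, 6 kinases and 8 phosphatases were lower. Over all named genes, 1345 were higher without that array in place of 1175, and 1585 lower in place of 1597. Of the 22 called genes, 21 kept their call without that array, and Map2k4 lost it. The count of higher kinases also moved with single mice: it was 1 without mouse 1, 1 without mouse 2, 2 without mouse 3 and 7 without mouse 4. Lower kinases numbered 3 without mouse 2, and lower phosphatases numbered 5 without mouse 1 and 5 without mouse 2. Over all named genes the same refits called 604, 728, 770 and 956 higher and 951, 999, 1210 and 1151 lower.

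**Figure D1:**
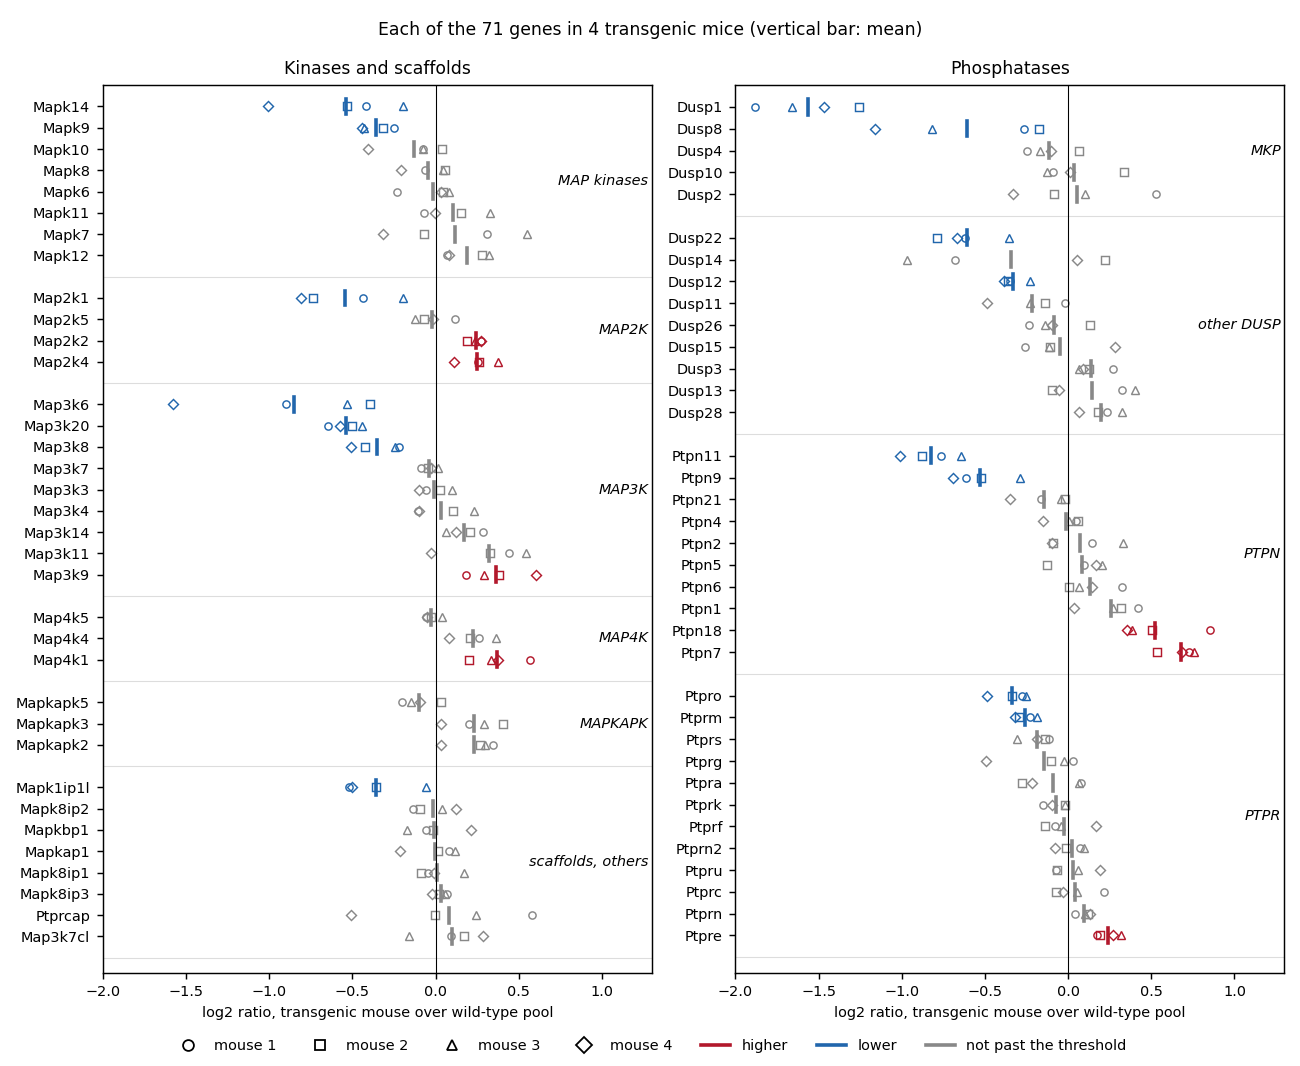
Log2 ratio of each of the 71 genes, transgenic mouse over wild-type pool, by gene family, with kinases and scaffolds on the left and phosphatases on the right. Symbols are the 4 mice, vertical bars are their means, and colour gives the call (red higher, blue lower, grey not past the threshold); Dusp1 at -1.57 and Ptpn11 at -0.82 lie far to the left in the phosphatase panel, and Ptpn7 at 0.68 has the highest mean.

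Kinases and phosphatases were then set side by side. Of the kinases, 4 were higher and 6 lower of 27 (37.0%), and of the phosphatases, 3 were higher and 8 lower of 36 (30.6%). The median log2 ratio was -0.01 over kinases, -0.04 over phosphatases and -0.01 over all named genes. By mouse, the kinase median was -0.06, 0.04, 0.08 and -0.03 in mice 1 to 4. The phosphatase median was -0.05, -0.08, -0.02 and -0.10 in the same mice. Over all named genes the median was -0.01, -0.01, -0.01 and -0.06, likewise below 0 in every mouse. Within a mouse, the kinase median minus the phosphatase median was -0.01, 0.12, 0.10 and 0.07 in mice 1 to 4, a mean of 0.07 ± 0.06 (SD, n = 4), so it was above 0 in 3 of 4 mice. Taken instead between the medians of the gene means over mice, the difference was 0.03, and without mouse 3 that value was -0.01. Called genes lay on both sides of 0 in both groups.

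**Figure D2:**
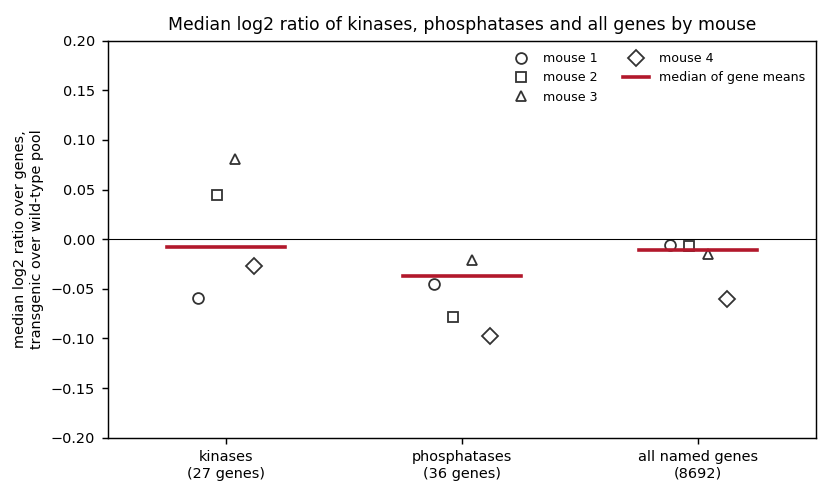
Median log2 ratio over the 27 kinases, the 36 phosphatases and all 8692 named genes tested, in each of the 4 mice (symbols), with the median of the gene means over mice (red line). The phosphatase median lies below 0 in every mouse, from -0.10 to -0.02, and the kinase median on both sides of 0. The median of all named genes also lies below 0 in every mouse, from -0.06 to -0.01.

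At the top of the relay, 3 of 9 MAP3Ks were lower, 1 was higher, and 1 of 3 MAP4Ks was higher. The share called was 44.4% of MAP3Ks and 33.3% of MAP4Ks, beside 31.9% of all named genes. Map3k6 encodes ASK2, a stress-activated kinase upstream of JNK and p38. Its log2 ratios were -0.90, -0.39, -0.53 and -1.58 in mice 1 to 4, a mean of -0.85 ± 0.53 (SD, n = 4, adjusted p = 0.0132). It was below the pool in every mouse and lowest in mouse 4, and without mouse 4 the mean was -0.61. Map3k20 encodes ZAK, a kinase that senses ribosome stalling. It measured -0.65, -0.50, -0.44 and -0.57 (mean -0.54 ± 0.09, adjusted p = 0.0031). The gene mean covers probes that differ: 1 fell by 0.89 ± 0.07 and the other, at -0.19 ± 0.13, did not pass. Map3k8, which encodes Tpl2, the kinase that links Toll-like receptors to ERK in macrophages, measured -0.22, -0.43, -0.24 and -0.51 (mean -0.35 ± 0.14, adjusted p = 0.0174). It did not pass without mouse 2 (adjusted p = 0.0720).

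Map3k9, encoding the mixed-lineage kinase MLK1 upstream of JNK, was higher at 0.19, 0.38, 0.29 and 0.60 in mice 1 to 4 (mean 0.37 ± 0.18, adjusted p = 0.0199), though not past the threshold without mouse 2 (adjusted p = 0.0704). Its relative Map3k11 (MLK3) averaged 0.32 ± 0.25 and missed the threshold (adjusted p = 0.053), with mouse 4 at -0.03 and the other 3 between 0.33 and 0.55. Map3k11 passed without the Cy3 array of mouse 4 (0.34, adjusted p = 0.0284) and without mouse 4 (0.44, adjusted p = 0.0197). Map4k1 encodes HPK1, a kinase of blood cells that restrains T and B cell receptor signals. It was above the pool in each mouse, with 0.57, 0.20, 0.33 and 0.37 (mean 0.37 ± 0.15, adjusted p = 0.0157). Here too the probes differed: 1 stood at 0.68 ± 0.13 and the other at 0.06 ± 0.26, and without mouse 1 the gene did not pass (adjusted p = 0.0734). Map4k4 averaged 0.23 ± 0.12 (adjusted p = 0.0608); leaving out mouse 4 brought it past the threshold (0.28, adjusted p = 0.0457). Map3k3, Map3k4, Map3k7 (TAK1) and Map4k5 lay between -0.04 and 0.03. For Map4k5 that mean covers probes at -0.39 ± 0.15, called lower, and at 0.20 ± 0.13 and 0.11 ± 0.11, not past the threshold. With 1 probe per gene Map4k5 was called lower (-0.39, adjusted p = 0.0148). Map3k14 (NIK, of the alternative NF-kappaB pathway) averaged 0.17 ± 0.10.

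In the middle tier, Map2k1 and Map2k2, which encode MEK1 and MEK2, the activators of ERK, were called in opposite directions. Map2k1 measured -0.43, -0.74, -0.19 and -0.81 in mice 1 to 4, a mean of -0.54 ± 0.28 (SD, n = 4, adjusted p = 0.0120), and without mouse 2 it did not pass (adjusted p = 0.0517). Map2k2 measured 0.27, 0.19, 0.24 and 0.27, a mean of 0.24 ± 0.04 (adjusted p = 0.0339). The difference between the 2 genes was not tested. Map2k2 had a narrow spread, and it missed the threshold in 8 of 18 alternatives, among them each refit that left out a mouse (adjusted p = 0.0597 to 0.243). Map2k4, whose product MKK4 activates JNK, stood at 0.26, 0.26, 0.38 and 0.11 (mean 0.25 ± 0.11, adjusted p = 0.0427). Its probes stood at 0.50 ± 0.14 and 0.00 ± 0.13. The gene did not pass without the Cy3 array of mouse 4 (0.19, adjusted p = 0.177), nor without mouse 1, 2 or 3 (adjusted p = 0.124 to 0.153). Map2k5, of the ERK5 cascade, averaged -0.02 ± 0.10.

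Of the 8 MAP kinases themselves, 2 were lower and 0 higher (25% called, beside 31.9% of all named genes). Mapk14 encodes p38 alpha, the main stress-activated p38 kinase. It measured -0.42, -0.53, -0.20 and -1.01 in mice 1 to 4 (mean -0.54 ± 0.34, n = 4, adjusted p = 0.0191). All mice lay below the pool, mouse 4 was the lowest, and without mouse 2 the gene did not pass (adjusted p = 0.0616). The other p38 genes in the set did not pass: Mapk11 averaged 0.10 ± 0.18 and Mapk12 averaged 0.19 ± 0.13 (adjusted p = 0.113), which passed without the Cy3 array of mouse 4 (0.27, adjusted p = 0.0366). Mapk9 encodes JNK2, a Jun kinase. Its values were -0.25, -0.32, -0.43 and -0.44 (mean -0.36 ± 0.09, adjusted p = 0.0112), a fall seen on all 8 arrays. Its 1 probe has a number in the block from 13000, where probes of the same gene agreed little (Spearman 0.129), so its name is less sure. Its relatives Mapk8 (JNK1) at -0.04 ± 0.12 and Mapk10 (JNK3) at -0.13 ± 0.19 did not pass. The difference between these paralogs was not tested, and probe sequences, which would show cross-hybridisation between them, were not used here. Mapk7 (ERK5) averaged 0.12 ± 0.39, above the pool in mice 1 and 3 and below it in mice 2 and 4, and Mapk6 (ERK3) averaged -0.02 ± 0.14.

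Below p38, none of the 3 MAPKAPK genes passed (limma, 0% called, beside 31.9% of all named genes), and 2 of them had an unadjusted p under 0.05. Mapkapk2, whose product MK2 stabilises cytokine mRNAs, measured 0.34, 0.27, 0.30 and 0.03 in mice 1 to 4 (mean 0.23 ± 0.14, adjusted p = 0.0643). It passed without the Cy3 array of mouse 4 (0.25, adjusted p = 0.0334) and without mouse 4 (0.30, adjusted p = 0.0326). Mapkapk3 averaged 0.23 ± 0.16, passing without mouse 4 (0.30, adjusted p = 0.0440), and Mapkapk5 averaged -0.10 ± 0.10. Of the 8 scaffolds and other proteins, 1 was lower (12.5% called, beside 31.9% of all named genes). That gene, Mapk1ip1l, measured -0.52, -0.36, -0.06 and -0.50 (mean -0.36 ± 0.21, adjusted p = 0.0282). It did not pass without mouse 1, 2 or 4 (adjusted p = 0.0853 to 0.112). The JNK scaffold genes Mapk8ip1, Mapk8ip2 and Mapk8ip3 lay between -0.02 and 0.03. Ptprcap, which encodes a lymphocyte protein bound to CD45, ranged from -0.51 in mouse 4 to 0.58 in mouse 1.

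On the phosphatase side, Dusp1 changed most. It encodes the nuclear MAP kinase phosphatase MKP-1, an immediate-early gene product that inactivates p38 and JNK. Its log2 ratios were -1.88, -1.26, -1.66 and -1.47 in mice 1 to 4, a mean of -1.57 ± 0.27 (SD, n = 4, adjusted p = 0.000571), which is 2.96-fold lower in transgenic lungs. Every one of the 8 arrays lay between -1.93 and -1.12. Over the 18 alternatives its mean stayed between -1.69 and -1.44. Dusp8, which encodes a phosphatase directed at JNK, measured -0.26, -0.18, -0.82 and -1.16 (mean -0.61 ± 0.47, adjusted p = 0.0296). Mice 3 and 4 were far below mice 1 and 2, and the mice differed beyond the spread of their dye-swapped arrays (limma F test, adjusted p = 0.0341). That test called 2.78% of all named genes and 2 of the 71 members. Dusp8 lost its call when mouse 3 (-0.53, adjusted p = 0.0857) or mouse 4 (-0.42, adjusted p = 0.0840) was left out. Its probes stood at -0.82 ± 0.55, called lower, and -0.39 ± 0.39, not past the threshold. With 1 probe per gene it was -0.39 (adjusted p = 0.0732), and with values beyond 10 kept it also missed the threshold (adjusted p = 0.0521).

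The remaining MAP kinase phosphatases in the set did not pass. Dusp2, known from activated lymphocytes and macrophages, measured 0.53, -0.09, 0.10 and -0.33 in mice 1 to 4. Dusp4 averaged -0.11 ± 0.13 and Dusp10, directed at JNK and p38, 0.03 ± 0.21. So 2 of 5 genes of this class were lower and 0 higher (40% called, beside 31.9% of all named genes).

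Among the 9 other dual-specificity phosphatases, 2 were lower and 0 higher (22.2% called, beside 31.9% of all named genes). Dusp22 encodes an atypical phosphatase (JKAP) that acts in JNK and T cell receptor signalling. It measured -0.62, -0.79, -0.35 and -0.67 (mean -0.61 ± 0.18, n = 4, adjusted p = 0.00394), below the pool on all 8 arrays. Dusp12 measured -0.35, -0.36, -0.23 and -0.38 (mean -0.33 ± 0.07, adjusted p = 0.0135), with little spread between mice. Its call was lost when mouse 1 was left out (adjusted p = 0.0616) and when mouse 2 was (adjusted p = 0.0571). Dusp14, which restrains T cell receptor signalling, was the second member that differed between mice (adjusted p = 0.0281). It stood at -0.68 and -0.97 in mice 1 and 3 and at 0.22 and 0.05 in mice 2 and 4, so its mean of -0.34 ± 0.57 describes no mouse. Mouse 3 was low for both Dusp14 and Dusp8 (-0.82 for Dusp8). The other low mouse was mouse 1 for Dusp14 and mouse 4 for Dusp8. The other 6 genes (Dusp3, Dusp11, Dusp13, Dusp15, Dusp26 and Dusp28) averaged between -0.22 and 0.20. Dusp28 had probes at 0.57 ± 0.38, called higher, and at -0.17 ± 0.57. Dusp3 had probes at 0.27 ± 0.11, called higher, and at 0.00 ± 0.22. Over the alternatives, Dusp3 was called higher in 3 and Dusp28 in 1, and Dusp15 was called lower in 1.

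Of 10 non-receptor tyrosine phosphatases, 2 were lower and 2 higher (40% called, beside 31.9% of all named genes). Ptpn11 encodes SHP-2, which, unlike most phosphatases, is needed for growth factor receptors to activate Ras and ERK. It measured -0.77, -0.88, -0.64 and -1.01 in mice 1 to 4 (mean -0.82 ± 0.16, n = 4, adjusted p = 0.0014), which is 1.77-fold lower. Ptpn9, encoding a phosphatase of secretory vesicles, measured -0.62, -0.53, -0.29 and -0.69 (mean -0.53 ± 0.18, adjusted p = 0.00553). Its 1 probe has a number in the block from 18000, where the naming offset was not the best (Spearman 0.119), so its name is less sure. Both lay below the pool on all 8 arrays. Ptpn7 encodes HePTP, a phosphatase of blood cells that binds and inactivates ERK and p38. It measured 0.73, 0.53, 0.76 and 0.68 (mean 0.68 ± 0.10, adjusted p = 0.0017), 1.60-fold higher and above the pool on all 8 arrays. Ptpn18, encoding a phosphatase of the PEST family, measured 0.85, 0.50, 0.38 and 0.36 (mean 0.52 ± 0.23, adjusted p = 0.0090), highest in mouse 1. It did not pass on the Cy3 arrays alone (0.35, adjusted p = 0.0933). Ptpn1 (PTP1B, which acts on the insulin receptor) averaged 0.26 ± 0.16 and missed the threshold (adjusted p = 0.0534). Its probes differed: 1 stood at 0.50 ± 0.17, called higher, and the other at 0.02 ± 0.19, not past the threshold. The gene mean passed without mouse 4 (0.33, adjusted p = 0.0300) and without that mouse's Cy3 array (0.28, adjusted p = 0.0282). Ptpn6 (SHP-1, of blood cells) averaged 0.13 ± 0.14 over 4 probes, none of them called.

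Of 12 receptor-type phosphatases, 2 were lower and 1 was higher, all by small amounts (25% called, beside 31.9% of all named genes). Ptpro measured -0.28, -0.34, -0.25 and -0.49 (mean -0.34 ± 0.11, n = 4, adjusted p = 0.0150) and lost its call when mouse 1 (adjusted p = 0.0515) or mouse 2 (adjusted p = 0.0566) was left out. Ptpre, which acts on Src family kinases, measured 0.17, 0.19, 0.32 and 0.27 (mean 0.24 ± 0.07, adjusted p = 0.0407). Ptprm encodes an adhesion-type receptor of endothelium and measured -0.23, -0.30, -0.19 and -0.32 (mean -0.26 ± 0.06, adjusted p = 0.0293). Ptpre and Ptprm kept 1 sign in every mouse but lost the call whenever any 1 mouse was left out (adjusted p = 0.0728 to 0.234 for Ptpre and 0.0588 to 0.211 for Ptprm over the alternatives that lost it). Ptprm also lost it without the probes in the weak naming blocks, where 1 of its 4 probes lies (-0.13, adjusted p = 0.207). Ptprc, the CD45 gene carried by all leukocytes, measured 0.21, -0.07, 0.05 and -0.03 (mean 0.04 ± 0.13).

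Several genes of blood cells were thus set beside each other with unlike values: Ptpn7 and Map4k1 were higher, and Ptprc, Ptpn6, Ptprcap and Dusp2 did not pass. Marker lists of leukocytes differed among themselves in the same mice. They are set beside 13.5% of all named genes higher and 18.4% lower. Of 7 macrophage markers 5 were higher and 1, Marco of alveolar macrophages, was lower, with medians of 1.55, 0.69, 1.31 and 0.80 in mice 1 to 4. Of 5 B cell markers 4 were higher and 1 was lower, with medians of 0.90, 0.56, 0.82 and 0.43. Of 5 T and NK cell markers 2 were higher and 1 was lower, with medians of 0.97, 0.16, 0.45 and 0.05. The lower one, Gzma, measured 0.20, -1.24, -1.34 and -1.99, and Nkg7 ran from 1.41 in mouse 1 to -1.09 in mouse 4. Both differed between mice (limma F test, adjusted p = 0.00487 for each). Of 6 neutrophil markers 2 were higher (Ngp at 0.91 and Camp at 0.48) and 2 were lower (S100a8 at -1.09 and S100a9 at -0.42), with medians of 0.01, -0.03, -0.01 and 0.28. Of 7 proliferation markers 6 were higher and 0 lower. The part of these cells in the values of Ptpn7, Map4k1 and Ptpn18 was not tested.

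Markers of muscle and fat were mostly lower in the same comparison, in which 18.4% of all named genes were lower and 13.5% higher. Of 11 heart and skeletal muscle markers 10 were lower, with medians of -0.74, -0.85, -0.83 and -0.39 in mice 1 to 4, and of 8 adipose markers 7 were lower, with medians of -1.71, -1.69, -1.16 and -1.04. Endothelial markers were split, with 2 higher and 2 lower of 10 and medians of 0.03, -0.07, 0.16 and -0.17. Epithelial markers were 1 higher and 3 lower of 8, with medians of -0.30, -0.16, -0.37 and -0.25. Ratios carry no levels, so no marker could be read as absent. The part of muscle, fat, endothelium and epithelium in the falls of Dusp1, Ptpn11, Mapk14 and the other lower genes was not tested.

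The promoters of Dusp1, Dusp8 and Ptpn11 are printed because they are the 3 lowered genes in the set whose promoter holds a cAMP-response element; they were chosen after their values were seen. RefSeq promoters (GRCm38.p6, 250 bases before to 50 after the start of the gene) were matched to 62 of the 71 members. The palindrome TGACGTCA, the full cAMP-response element bound by CREB and ATF factors, was searched on both strands, and TGANTCA, the AP-1 site, likewise; the 2 motifs do not overlap in their letters. Motif matches are in capitals, the sequences read 5′ to 3′ on the strand of the gene, and all 3 of these genes lie on the minus strand.
Dusp1 (chr17:26508423-26508722, minus strand): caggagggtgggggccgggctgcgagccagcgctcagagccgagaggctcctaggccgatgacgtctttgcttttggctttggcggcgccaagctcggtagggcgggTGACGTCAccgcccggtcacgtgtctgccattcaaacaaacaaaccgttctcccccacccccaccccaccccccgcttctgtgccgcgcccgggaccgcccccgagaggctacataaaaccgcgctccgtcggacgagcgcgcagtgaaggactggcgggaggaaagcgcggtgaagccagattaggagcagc
Dusp8 (chr7:142095235-142095534, minus strand): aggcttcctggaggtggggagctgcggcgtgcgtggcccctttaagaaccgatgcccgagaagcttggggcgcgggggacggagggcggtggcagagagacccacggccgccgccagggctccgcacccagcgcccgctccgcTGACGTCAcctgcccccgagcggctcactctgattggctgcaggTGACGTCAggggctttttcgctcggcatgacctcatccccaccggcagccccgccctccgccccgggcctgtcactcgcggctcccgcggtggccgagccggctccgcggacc
Ptpn11 (chr5:121191348-121191647, minus strand): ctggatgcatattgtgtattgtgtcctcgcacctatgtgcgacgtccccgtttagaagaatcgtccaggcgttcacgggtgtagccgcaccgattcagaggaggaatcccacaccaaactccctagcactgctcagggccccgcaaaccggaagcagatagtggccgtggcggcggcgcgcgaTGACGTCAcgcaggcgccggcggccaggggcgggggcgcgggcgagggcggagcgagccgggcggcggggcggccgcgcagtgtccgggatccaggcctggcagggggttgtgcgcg

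The match starts at position -143 from the start in Dusp1, at -107 and -63 in Dusp8 and at -67 in Ptpn11. Of the 14 lowered members with a promoter, 3 held TGACGTCA (21.4%), of 7 raised members 0 and of 41 others 3 (Mapk10, Ptprs and Ptpru). That is 6 of 62 members (9.68%), beside 3.31% of the 7038 named genes tested with a promoter. Among all named genes, 4.36% of 1284 lower, 2.83% of 954 higher and 3.12% of 4800 other genes held it. TGANTCA was found in Ptpre at -240 and in Dusp13 at -72, which is 2 of 62 members (3.23%), beside 6.99% of named genes tested. Ptpre is the 1 called member with that motif in this window, and it is shown for comparison.
Ptpre (chr7:135605578-135605877, plus strand): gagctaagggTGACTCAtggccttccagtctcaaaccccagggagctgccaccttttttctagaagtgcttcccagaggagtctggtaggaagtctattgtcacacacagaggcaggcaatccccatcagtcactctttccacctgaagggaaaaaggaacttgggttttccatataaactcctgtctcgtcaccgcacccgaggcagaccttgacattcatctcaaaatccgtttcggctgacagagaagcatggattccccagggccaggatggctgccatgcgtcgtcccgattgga

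A match describes letters and not binding, and these windows leave out enhancers and other start sites.

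Around these genes in the pathway, 6 of 7 lists held more lower than higher genes, and the share called ranged from 20% to 66.7%, beside 31.9% of all named genes. Of 18 receptor tyrosine kinases, 5 were lower and 1 higher: the fibroblast growth factor receptor genes Fgfr3 (-1.0 ± 0.28) and Fgfr4 (-0.87 ± 0.32), the VEGF receptor Flt1 (-0.60 ± 0.32), Igf1r (-0.48 ± 0.23) and Fgfr1 (-0.35 ± 0.21) were lower, and the insulin receptor Insr (0.50 ± 0.10) was higher. Of 23 genes of Ras, Raf, adaptors and regulators, 8 were lower, led by the Ras-like Rap1b (-0.81 ± 0.47), the exchange factor Rasgrp2 (-0.74 ± 0.21), Rap1a (-0.54 ± 0.17) and the MEK scaffold Lamtor3 (-0.52 ± 0.27). The 1 gene that was higher was Nf1 (0.66 ± 0.32), whose product neurofibromin switches Ras off. Of 5 feedback inhibitors, 1 was lower: Errfi1, an inhibitor of EGF receptor signalling, at -1.49, -1.19, -1.32 and -1.8 (mean -1.45 ± 0.26). Igf1r lost its call without mouse 1 (adjusted p = 0.0556), Lamtor3 without mouse 2 (adjusted p = 0.0522) and Fgfr1 without mouse 1, 2 or 4 (adjusted p = 0.0863 to 0.107).

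Inputs to JNK and p38 were evenly split, with 4 higher and 4 lower of 16. The lower ones were the arrestin gene Arrb1 (-0.70 ± 0.33), the small GTPase genes Rac1 (-0.51 ± 0.21) and Cdc42 (-0.28 ± 0.14), and Tab3 (-0.34 ± 0.15), a partner of TAK1. The higher ones were Rac2 (0.63 ± 0.37), the Rac gene of blood cells, the JNK scaffold Spag9 (0.62 ± 0.07), Pak3 (0.57 ± 0.23) and Traf2 (0.31 ± 0.13). Of 48 serine/threonine phosphatase genes, 5 were higher and 7 lower (25%). Ppm1a (-0.88 ± 0.24), encoding a phosphatase that acts on p38 and Smad proteins, and the catalytic subunit genes Ppp1cb (-0.75 ± 0.16) and Ppp2cb (-0.62 ± 0.18) were lower, and so was Ppp1r16b (-0.73 ± 0.34). Ppp1r14b (0.86 ± 0.22), Ppp1r16a (0.61 ± 0.21), Ppp1r9a (0.36 ± 0.21) and Ppp1r3b (0.34 ± 0.17), all regulatory subunits of protein phosphatase 1 or its inhibitors, were higher. Cdc42, Tab3, Traf2, Ppp1r9a and Ppp1r3b each lost the call without at least 2 of the mice (adjusted p = 0.0524 to 0.108).

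Below the cascade, 6 of 14 targets of MAP kinases were lower and 1 higher, and the list's median was -0.26, beside -0.01 over all named genes. The immediate-early nuclear receptor Nr4a1 (-1.13 ± 0.23), the heat shock protein Hspb1 (-0.58 ± 0.14), Ier3 (-0.50 ± 0.23) and Mef2c (-0.43 ± 0.18), a p38-responsive factor also abundant in muscle, fell, and the ERK-responsive factor Elk1 (0.36 ± 0.16) rose. Of 9 AP-1 and related genes, 4 were lower and 2 higher. Fosb measured -0.48, -0.28, -1.02 and -1.30 in mice 1 to 4 (mean -0.77 ± 0.47) and Jun measured -0.51, -0.69, -0.49 and -0.96 (mean -0.66 ± 0.22). Jdp2 (-0.53 ± 0.28) and Atf2 (-0.48 ± 0.10), a substrate of JNK and p38, were lower as well. Batf (0.68 ± 0.31), an AP-1 partner of lymphocytes, and Junb (0.37 ± 0.18) were higher. Fosl1, which encodes Fra-1, averaged 0.40 ± 0.41 and did not pass (adjusted p = 0.0743). Mice 1 to 3 lay between 0.14 and 0.28 for Fosl1, and mouse 4 was the highest. The 8 arrays of Fosl1 ran from -0.05 to 2.06 with a median of 0.14, and 4 of them lay below 0. A Fosl1 value without the Cy3 array of mouse 4 is not given here, so its mean is not read as a rise. Atf3 stood at -0.04 ± 0.31. Jdp2 lost its call without mouse 2 (adjusted p = 0.0530), Junb without mouse 1 or 3 (adjusted p = 0.0588 to 0.0817) and Elk1 without mouse 1, 3 or 4 (adjusted p = 0.0563 to 0.0716). Over all 7 lists, 29 of the 49 called genes kept their call without each mouse in turn.

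**Figure D3:**
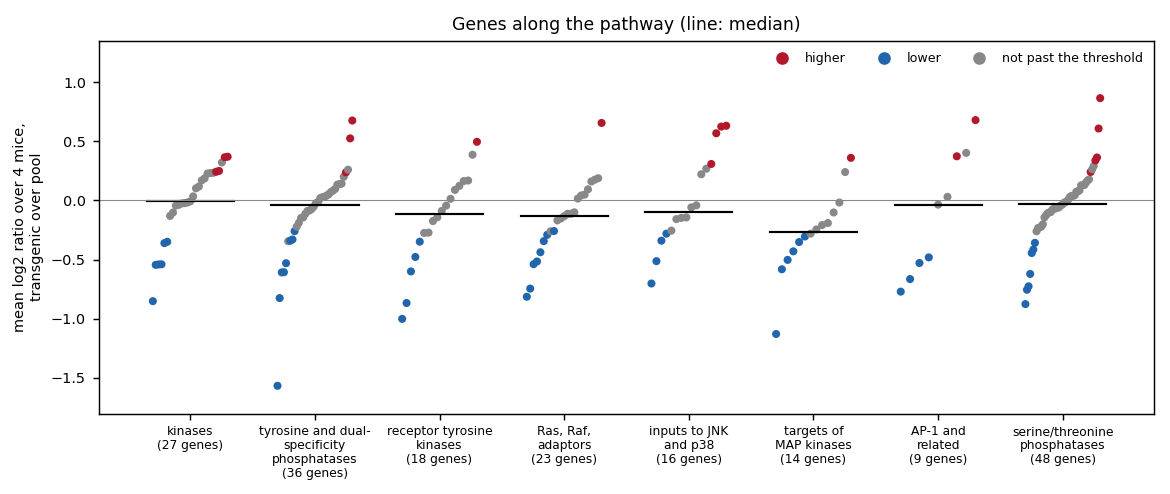
Mean log2 ratio over 4 mice, transgenic over pool, of each gene in the kinases, the tyrosine and dual-specificity phosphatases and 6 pathway lists, ordered by value within a list; black lines are list medians and colour gives the call. The median of the MAP kinase targets, -0.26, is the lowest, and the other medians lie between -0.13 and -0.01.

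Dye and probe choice were examined member by member. The dye test called 0 of 8645 named genes (limma), with 2311 at an unadjusted p under 0.05, and 15 of the 71 members were among those. The 22 called members had the same sign in both dye orientations: Dusp1 averaged -1.44 on the arrays with transgenic RNA in Cy5 and -1.69 on the Cy3 arrays, Ptpn11 -0.65 and -0.996, and Ptpn7 0.66 and 0.69. The largest gap among them was in Mapk14, at -0.34 in Cy5 and -0.74 in Cy3. On the Cy3 arrays alone, Map2k2, Map2k4, Map3k8, Map3k9, Ptpn18, Ptpre and Ptprm lost their call (adjusted p = 0.0529 to 0.234). On the Cy5 arrays alone, Map2k2, Map2k4, Map4k1 and Mapk1ip1l lost it (adjusted p = 0.0527 to 0.24).

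**Figure D4:**
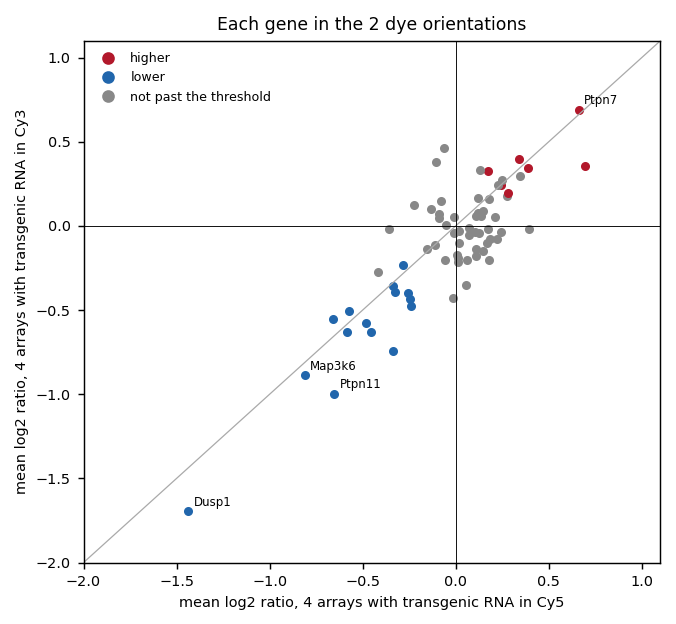
Mean log2 ratio of each of the 71 genes over the 4 arrays with the transgenic RNA in Cy5 (x axis) and over the 4 with it in Cy3 (y axis); the grey line marks equal values and colour gives the call. Called genes lie in the lower left and the upper right, with Dusp1 at -1.44 and -1.69.

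Of the 71 genes, 26 were measured by several probes and 45 by 1. In 13 of the 26 no probe was called, and 2 had probes called in opposite directions. Ptpra, an activator of Src kinases, had probes at -0.54 ± 0.31, -0.25 ± 0.16 and 0.52 ± 0.12, of which the first was called lower and the last higher, so its gene mean of -0.09 ± 0.18 hides opposite values. Ptprm had probes at -0.84 ± 0.39 and -0.66 ± 0.20, both called lower, at 0.39 ± 0.13, called higher, and at 0.07 ± 0.27. Only Map4k4, with probes at 0.34 and 0.37, and Ptprm had at least 2 probes called the same way. The Map4k4 probe at 0.37 has a number in the block from 18000 and the Ptprm probe at -0.66 in that from 8000. The naming offset was not the best in these blocks, so both names are less sure. With 1 probe per gene, Map2k2 (0.14), Map3k20 (-0.19), Map4k1 (0.06), Dusp8 (-0.39) and Ptpre (0.18) lost their call (adjusted p = 0.0732 to 0.731). No probe sequence was used here, so whether such probes measure other transcripts was not tested.

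**Figure D5:**
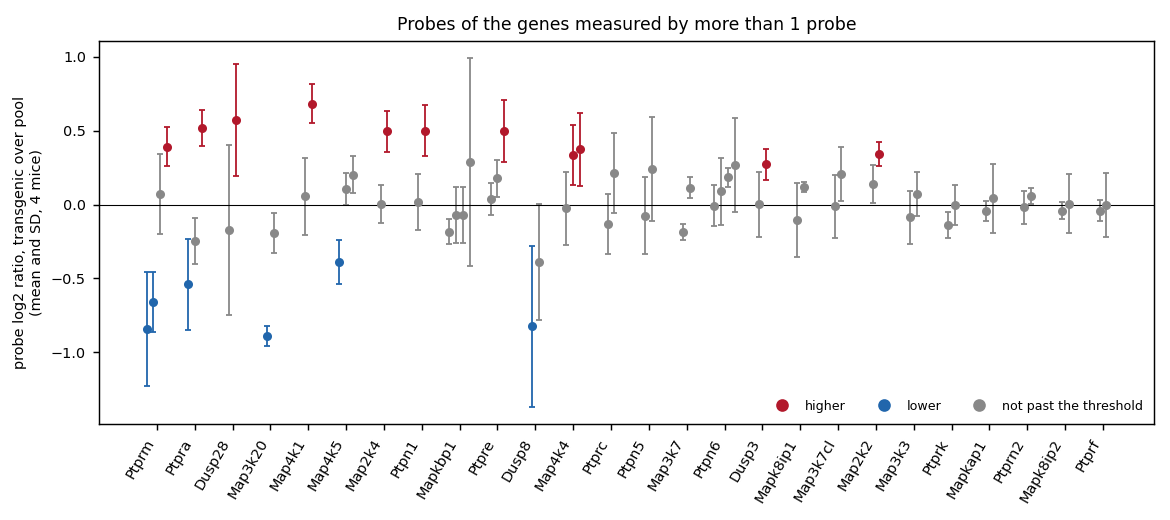
Mean log2 ratio of every probe of the 26 genes with more than 1 probe, transgenic over pool, with error bars of 1 SD over 4 mice and colour for the probe's call. Genes are ordered by the range of their probes, and Ptprm and Ptpra, at the left, hold probes on both sides of 0.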

How the data were processed

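The authors deposited a log2 ratio for each of 20794 probes on each array; how they corrected the background and normalised the arrays is not given in the sources used here, and spot intensities, and so depth over background, are unknown. Values beyond 10 in size (498) were set to missing, beside 706 missing as deposited, which left 20585 to 20729 per array. Gene names come from the platform annotation, whose probe number plus 11 is the row of the deposited table. Probes of the same gene correlated at 0.224 (Spearman, 4802 pairs) at that offset, at 0.013 with none and at up to 0.054 at the other offsets within 300. The offset was best in 19 of 21 blocks of 1000 numbers. Annotation numbers above 20237 were not used (475 probes). In all, 12296 probes were named and 8498 were not.

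Probes were averaged per gene and the 2 dye-swapped arrays per mouse. A two-sided test of the mean of 4 mice against 0 was made by lmFit and eBayes (limma 3.58.1 under R 4.3.3), with Benjamini-Hochberg adjustment over 8692 genes and a threshold of 0.05. Probes were tested likewise over 20621. For differences between mice, the moderated F statistic of limma was taken over the 8 arrays, adjusting for dye; dye effects were tested on the within-mouse difference. These fits were also run on simulated data with normal noise. That simulation held no error shared through the pool and no array of wider spread, so it tests neither. The pool is 1 sample, so its spread is left out, and the number of arrays limits the precision. The alternatives varied placeholders, centring, scaling, blocking by mouse, dye, mice, probe summary, missing values, naming blocks and the eBayes prior. Members and lists were chosen with earlier results of these data known. Every member past the threshold is named, with other members of the ERK, JNK, p38, MAP2K and MKP classes, and up to 4 genes per list and direction; further genes were chosen after their values were seen. Promoters come from RefSeq (GRCm38.p6). Tables were made with pandas 2.3.3 and numpy 2.4.6 and plots with matplotlib 3.10.9, under Python 3.11.15.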

Additional observations from a re-analysis of the deposited data

Results flagged for a closer look

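The value of Mapk6, the ERK3 gene, in mouse 1 lay apart from the other mice: -0.23, against 0.03 to 0.08 in mice 2 to 4. The gap to the nearest mouse was 0.852 of the whole range, above Dixon's critical value for 4 samples. It was the 1 such case among 71 genes tested, and chance marks about 1 in 20 groups.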

How the results depend on the processing

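Each of the 71 genes was refitted under up to 18 alternatives, 2 of which (leaving out the probe numbers from 8000 and from 18000, and taking mouse 4 from its Cy5 array alone) were chosen after seeing the data. Of 1269 refitted values, 51 lost the call and 39 gained it with the sign kept. The sign differed in 77 values of 34 genes, none of them called in the reported fit, and 1 of the 77 was called. That one was Ptpra, at 0.52 with 1 probe per gene (adjusted p = 0.00445), where the probe kept is the one called higher. Of the 22 called genes, 7 kept their call in every alternative that measured them: Mapk9, Map3k6, Dusp1, Dusp22, Ptpn11, Ptpn7 and Ptpn9. The alternatives that leave out naming blocks drop the only probe of Mapk9 (block from 13000) or of Ptpn9 (block from 18000). Of the 49 others, 12 were called in at least 1. The share of all named genes called ranged from 17.9% without mouse 1 to 37.3% with the mouse as a random block. Leaving out each mouse in turn gave 1 to 7 higher kinases, 3 to 6 lower kinases, 2 to 3 higher and 5 to 6 lower phosphatases, and 604 to 956 higher and 951 to 1210 lower named genes. Higher kinases numbered 7 with arrays centred, 7 with arrays scaled to 1 spread and 8 with the mouse as a random block. They numbered 7 with mouse 4 from its Cy5 array alone and 1 with the Cy3 arrays only. In the same order, 1270, 1317, 1354, 1345 and 684 named genes were higher, beside 1175 in the reported fit. The kinase median was 0.11 with the Cy5 arrays only. The phosphatase median was -0.0781 with the Cy3 arrays only, -0.0788 with 1 probe per gene, -0.0776 without the planned naming blocks (from 8000 and 13000) and -0.0713 without those from 8000 and 18000. The kinase median minus the phosphatase median was 0.12 with the Cy5 arrays only, 0.11 with 1 probe per gene and 0.0913 without the planned blocks. Fewer arrays or mice enter the single-dye and leave-one-out fits; for the other settings the cause was not tested. No paired analysis was possible because all mice belong to 1 group set against 1 pool. In 10 members, Mapk9 among them, a probe lies in a planned naming block.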
